A study of Mus musculus with 13 samples.

Results

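Hematopoietic stem and progenitor cells (HSPCs) carrying a mutated Srsf2 gene were compared with wild type HSPCs by bulk RNA-seq, in 3 Srsf2 mutated and 2 wild type libraries. These 5 libraries, of the 13 samples of the series, were chosen by their labelled genotype, and the comparison ran over all genes with enough counts. The labels give mouse bone marrow as the tissue, HSPCs as the cells and, as the only difference between the groups, the genotype. For 3 single-cell samples of the same series, not analysed here, the sorted population is Lin- c-Kit+ and the mice carry Mx1-Cre, with wild type Srsf2 or 1 copy of Srsf2 P95H, and the cells were taken 4 weeks after pIpC in what the labels call a BMT model. Mx1-Cre is a recombinase under an interferon-responsive promoter, and pIpC is a double-stranded RNA that switches it on, also outside blood cells. Whether the bulk libraries share that Cre, that allele, that sort and that time is not given in the sources used here, nor are strain, age and sex. Nothing in the labels says that replicates are from different mice, so p-values measure only the spread between these libraries, which may be technical.

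SRSF2 is a splicing factor of the SR family. It binds short enhancer motifs within exons and helps the spliceosome to recognise those exons, and mutations of a proline beside its RNA-binding domain are recurrent in myelodysplastic syndrome and chronic myelomonocytic leukemia. Myelodysplastic syndromes are clonal disorders of HSPCs in which blood cells mature poorly, and the series title links the mutation with inflammatory signaling and myeloid-derived suppressor cells, immature myeloid cells that restrain T cells. HSPCs give rise to granulocytes and monocytes, red cells, megakaryocytes and lymphocytes, and each of these fates has its own transcription factors and products. Inflammatory signals reach such cells through receptors that activate NF-kB, STAT and AP-1 factors, whose first targets include cytokines and the inhibitors that shut the pathway down again.

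Total counts ran from 39142427 to 47341114 over the 5 libraries. On the first principal component, which held 78.5% of the variance, the wild type libraries lay at -111.9 and -104.9 and the Srsf2 mutated libraries at 74.1, 80.4 and 62.3. The second component (10.8%) set Srsf2 mutated replicate 3, at 60.7, apart from replicates 1 and 2, at -18.9 and -36.6. The median gene differed by 0.179 on the log2 scale between the wild type libraries, by 0.150 to 0.272 between pairs of Srsf2 mutated libraries, and by 0.586 to 0.619 between a wild type and an Srsf2 mutated library. The biological coefficient of variation was 0.104 in wild type and 0.174 in Srsf2 mutated. Of 17437 tested genes, 9315 changed (53.4%) at an adjusted p under 0.05 in edgeR's quasi-likelihood test, the threshold for every call below: 4789 rose (27.5%) and 4526 fell (26%) in Srsf2 mutated. The rises were larger. At least 2-fold rises were called for 3231 genes (18.5%) and at least 2-fold falls for 1044 (5.99%). At least 8-fold changes numbered 1469 rises and 48 falls. Library values of the groups did not overlap for 70.6% of tested genes, higher in Srsf2 mutated for 35.8% and lower for 34.9%. Most list members named below were picked by a small adjusted p. That their library values lie apart follows largely from this choice and is no further support. Without wild type replicate 1, 3171 genes were called higher. With so broad a change, the counts for gene groups below are to be read against 27.5% higher and 26% lower, and against a median over all tested genes of 0.043 on the log2 scale.

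**Figure D1:**
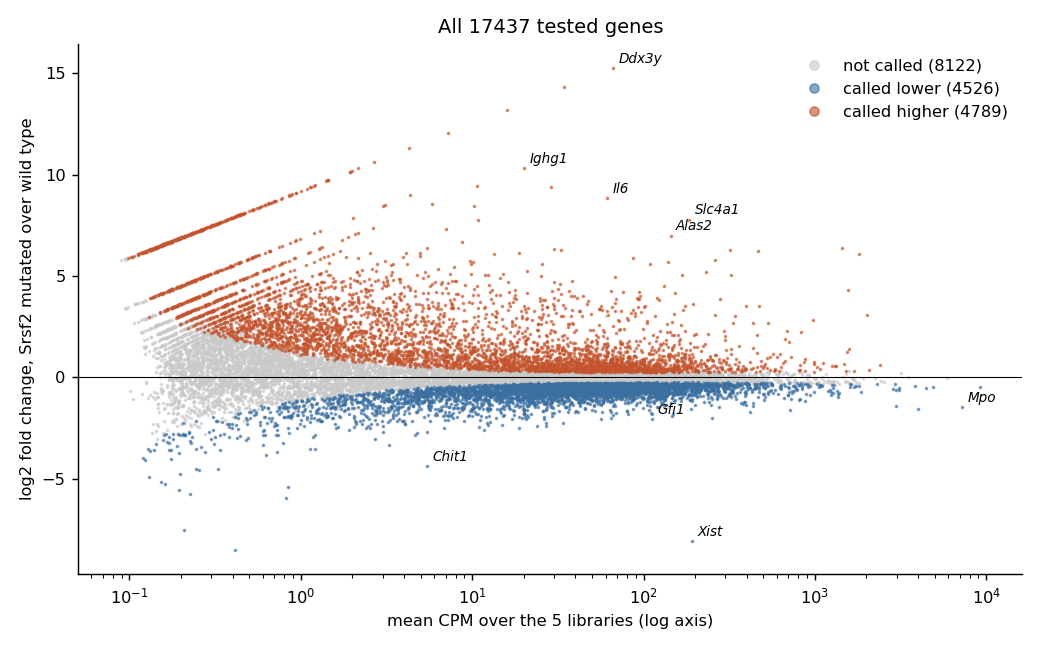
Each point is a tested gene, with its mean CPM over the 5 libraries (log axis) against its log2 fold change, Srsf2 mutated over wild type. The 4789 genes called higher reach far larger fold changes than the 4526 called lower, with Ddx3y the highest and Xist far below most falls. The straight rows of points at the left are genes with few counts in a group, whose fitted fold change depends on the prior count.

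The mutated gene itself was not called as changed. Srsf2 (chr11:116849901-116853094 on GRCm38) stood at 277 and 240.0 CPM (counts scaled to a common library size by TMM factors) in wild type replicates 1 and 2, and at 226, 223 and 243 in Srsf2 mutated replicates 1, 2 and 3, and this order of libraries is kept throughout. The ranges of the groups met, and the difference was not called (log2 fold change -0.17 ± 0.10 SE, adjusted p = 0.1802). It was called lower (-0.19, adjusted p = 0.0391) once all 10 bulk libraries were fitted together. That fit adds libraries of Setd2 knockout and of Setd2 knockout with mutated Srsf2 (double mutant), which enter the estimate of spread. Counts per gene do not show which allele was read, so the level of Srsf2 checks neither the mutation nor its dose. Setd2, the histone methyltransferase named in the series title, stood at 156 and 142 CPM against 212, 222 and 156. It was called higher (log2 fold change 0.40 ± 0.14 SE, adjusted p = 0.0279), but the call was lost without wild type replicate 1 or 2 or Srsf2 mutated replicate 1 or 2, at adjusted p of 0.0934, 0.215, 0.102 and 0.0605. Srsf2 mutated replicate 3 lay at the wild type level for Setd2.

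Sex-linked genes set the groups apart. Xist, the RNA that silences an X chromosome in female cells, was at 491 and 463 CPM in wild type and at 2.53, 1.39 and 1.41 in Srsf2 mutated. The Y-linked genes Ddx3y, Eif2s3y, Kdm5d and Uty had 0 counts in both wild type libraries. In Srsf2 mutated, Ddx3y stood at 103, 119.7 and 109 CPM, Eif2s3y at 60.7, 55.1 and 55.5, Kdm5d at 28.01, 29.3 and 22.7 and Uty at 11.4, 12.01 and 12.5. Against 3 counts over the wild type group, these were at least 3197-fold, 1648-fold, 769.8-fold and 346-fold higher, bounds that cover counting error only. The labels give no sex, and sex and genotype cannot be told apart in these 5 libraries. With the X-linked Ddx3x among the rises, and with Kdm5c, Eif2s3x and Xist as the falls, 5 of 9 tested sex-linked genes were higher and 3 lower. With X and Y genes left out of the fit, 4647 genes were called higher and 4411 lower.

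Gene classes of the annotation moved with the groups. Of 13438 protein-coding genes, 3094 rose (23.02%) and 4258 fell (31.7%), with a median log2 fold change of -0.09. Antisense, sense intronic, sense overlapping and unconfirmed genes, most of them short models that lie in or against other genes, rose in 750 of 1429 and fell in 33, with a median of 2.13. They took 0.108% and 0.112% of all counts in wild type and 0.262%, 0.280% and 0.204% in Srsf2 mutated, so every Srsf2 mutated library lay above the wild type ones. This count of rises was 415 without wild type replicate 1 and 473 without wild type replicate 2. Small RNA genes rose in 144 of 233 and fell in 4 (67 and 73 rose without wild type replicate 1 or 2), and lincRNA genes rose in 167 of 492 and fell in 40 (92 and 97 rose likewise). Small RNA genes took 0.0203% and 0.0509% of all counts in wild type and 0.0537%, 0.0682% and 0.0584% in Srsf2 mutated. Wild type replicate 2 thus lay close to the mutated libraries. Its miRNA share (0.0469%) was above those of Srsf2 mutated replicates 1 and 3 (0.0353% and 0.0444%). Of 15 mitochondrial genes 10 rose. The protein-coding genes fitted alone gave 3700 rises and 3479 falls, so the balance of directions among them depends on which genes enter the scaling, and their median moved to 0.0056. By level, 32.7% of genes under 1 CPM rose and 3.78% fell, while of the 93 genes over 1000 CPM 18.3% rose and 40.9% fell. A low gene can pass the filter through the libraries of 1 group alone, so the balance among low genes depends in part on the filter. A stricter filter (50 counts in 2 libraries) gave 2231 rises and 769 falls of at least 2-fold, against 3231 and 1044. With no filter on low counts, 4534 genes were called higher and 4702 lower. Among protein-coding genes, Srsf2 mutated replicate 3 differed from the mean of replicates 1 and 2 by a median of 0.17 on the log2 scale in the shortest of 4 length classes and of -0.18 in the longest. The part of RNA composition, of library quality and of that length trend in the results below was not tested.

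**Figure D2:**
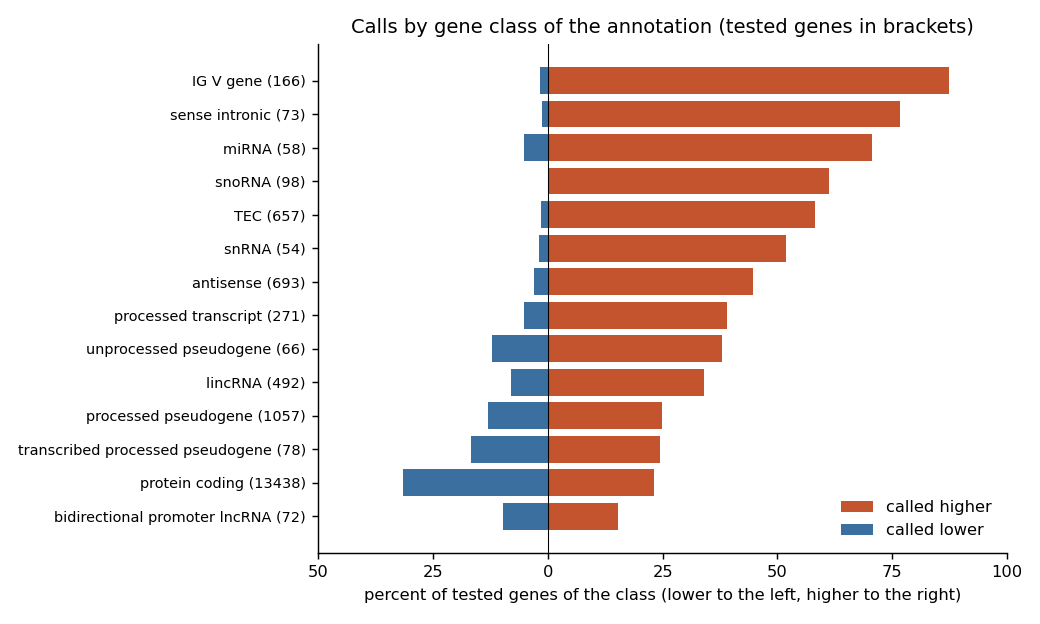
Bars give the percentage of tested genes of each annotation class (50 or more tested) called higher (right) or lower (left) in Srsf2 mutated. Of the protein-coding genes 31.7% were lower and 23.02% higher, while in the immunoglobulin variable, sense intronic, miRNA, snoRNA and TEC (unconfirmed) classes most of the tested genes were higher.

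The labelled cell type was checked against its markers. The HSPC markers Kit, Cd34 and Flt3 were present in all 5 libraries, and lower in Srsf2 mutated. Kit, the stem cell factor receptor, was at 439 and 391 CPM in wild type and 204, 219.8 and 192 in Srsf2 mutated, about 2-fold lower (log2 fold change -1.01 ± 0.10 SE, adjusted p = 4.68e-06). Cd34 was at 303 and 276 against 227, 189.9 and 226, and its call was lost without wild type replicate 1 (adjusted p = 0.0525). Most defining markers of other cells moved up with the mutated group. The B cell markers Cd79a and Pax5 stood at 9.73 to 16.3 CPM in wild type and at 114 to 172 CPM in Srsf2 mutated, and the red cell marker Slc4a1 lay at 1.06 and 1.73 CPM in wild type and at 282 to 325 CPM in Srsf2 mutated. The macrophage marker Adgre1 stood at 16.3 and 14.5 CPM against 38.5, 36.9 and 42.7. T cell receptor subunits were near 0: Cd3e had 1 count in the wild type group, and Cd3g 0 counts, against 0.406, 0.627 and 0.427 and 0.519, 0.728 and 1.05 CPM in Srsf2 mutated. Ncr1 of NK cells, Mertk of macrophages and Ltf of late neutrophils were not called, Ngp of late neutrophils fell, Lepr of stromal cells was at or near 0 in all libraries and not tested, and Cdh5 and Col1a1 were called higher at 2.17 CPM or less, calls that ended with wild type replicate 1 left out, at adjusted p of 0.263 for Cdh5 and 0.0545 for Col1a1, and for Cdh5 also without wild type replicate 2 or Srsf2 mutated replicate 1. Without wild type replicate 2 Ltf was called higher (adjusted p = 0.00235). In bulk libraries, more cells of a type and more RNA per cell cannot be told apart, and the part of admixed cells in the results below was not tested.

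Of 25 tested secreted cytokines 16 rose, 3 fell and 6 were not called (median log2 fold change 2.17), and 4 of the 29 members had too few counts to be tested. Il6 (chr5:30013114-30019981), a cytokine that drives acute-phase and myeloid responses through STAT3, went from 0.3005 and 0.139 CPM to 99.6, 93.1 and 113, with no overlap between the groups. Its fitted rise was 458-fold (log2 fold change 8.84 ± 0.23 SE, adjusted p = 3.90e-11), and the log2 value was 9.47 without wild type replicate 1. Il1b, the interleukin-1 released by inflammasomes, stood at 2.13 and 1.62 CPM against 49.3, 45.5 and 51.8 (log2 fold change 4.70 ± 0.16 SE, adjusted p = 4.25e-10). Osm, a cytokine of the interleukin-6 family, stood at 31.1 and 28.8 against 436, 414 and 484 (14.9-fold higher). Csf1, the growth factor of monocytes and macrophages, stood at 13.4 and 13.8 against 137, 146 and 122 (9.95-fold higher). Each of these 4 genes lay above every wild type library in every Srsf2 mutated library. Tnf rose by 3.03-fold, from 11.9 and 11.8 CPM to 35.4, 35.4 and 36.6. Lif, another interleukin-6 family member, rose from 0.809 and 0.393 to 8.71, 8.85 and 8.51 CPM (log2 fold change 3.85 ± 0.29 SE, adjusted p = 3.98e-07), and its log2 value was 4.44 without wild type replicate 1.

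Among regulatory cytokines the directions were mixed. Il10, which damps macrophage activation, had 2 counts in wild type and 2.87, 3.395 and 4.54 CPM in Srsf2 mutated, a ratio of 154-fold with a counting interval of 42.5 to 1277. Tgfb1, a growth inhibitor of HSPCs, fell from 562 and 611 CPM to 368, 401 and 406 (log2 fold change -0.58 ± 0.10 SE, adjusted p = 3.16e-04). Ebi3, the shared subunit of interleukins 27 and 35, fell from 17.4 and 18.6 to 8.53, 7.17 and 8.94 CPM. Its partner Il27 stood at 1.39 and 1.66 against 0.722, 0.707 and 0.578 CPM, and that call was lost without wild type replicate 1 or 2 or Srsf2 mutated replicate 1 (adjusted p = 0.0809, 0.169 and 0.05397). Il1rn, the natural antagonist of the interleukin-1 receptor, stood at 3.72 and 4.43 against 7.22, 6.18 and 7.11 CPM and lost its call without wild type replicate 1 (adjusted p = 0.0846). Some called cytokines stayed very low: Csf2, Il13 and Areg had 0 counts in wild type and mean levels of 0.233, 0.508 and 0.598 CPM in Srsf2 mutated. Csf2 lost its call without wild type replicate 1 or 2 (adjusted p = 0.155 and 0.1497).

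Chemokine ligands, which recruit leukocytes, rose in 16 of 20 tested genes and fell in 1 (median 3.56). Ccl6 was at 12.9 and 12.3 CPM in wild type and 198, 176 and 198 in Srsf2 mutated (log2 fold change 3.92 ± 0.12 SE, adjusted p = 1.95e-10). Ccl4, a macrophage inflammatory protein, was at 17.7 and 9.35 against 239, 221 and 272 (log2 fold change 4.17 ± 0.23 SE, adjusted p = 2.63e-08). The monocyte attractant Ccl2 was at 0.763 and 0.531 against 10.2, 11.4 and 13.4, and the interferon-responsive Cxcl10 at 2.87 and 1.59 against 25.98, 24.6 and 27.8. The ranges of the groups were apart for all of them, and the fold changes were 15.1-fold, 18.04-fold, 17.9-fold and 11.7-fold. Of the ligands of the neutrophil receptor CXCR2, Cxcl2 was at 6.73 and 2.36 against 56.7, 45.3 and 59.2 CPM, with a log2 fold change of 3.56 that became 4.49 without wild type replicate 1 and 2.98 without wild type replicate 2. Cxcl3 was at 0.0462 and 0.0693 against 3.34, 4.37 and 4.87, and Cxcl1 had 3 counts in wild type, a mean of 0.461 CPM in Srsf2 mutated, and no call without wild type replicate 2 (adjusted p = 0.161). Pf4, a platelet chemokine, was the called gene that fell in this group, from 30.3 and 29.3 CPM to 8.17, 8.17 and 12.1; without Srsf2 mutated replicate 2 the falls numbered 2.

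Within the NF-kB pathway the inhibitors rose more often than the subunits. Of 12 feedback inhibitors 8 rose and 2 fell (median 1.12), and of 15 subunits and activating kinases 5 rose and 3 fell (median 0.01); the difference between these lists was not tested. Nfkbiz, a nuclear IkB protein needed for part of the NF-kB targets, was at 19.2 and 12.8 CPM in wild type and 537, 554 and 493 in Srsf2 mutated (log2 fold change 5.04 ± 0.18 SE, adjusted p = 5.42e-10). Zc3h12a, the RNase Regnase-1 that degrades Il6 mRNA, was at 18.1 and 15.6 against 137, 144 and 133 (8.19-fold higher). Nfkbid and Nfkbie, further IkB proteins, rose by 7.56-fold and 4.01-fold. Nfkbia, which holds NF-kB in the cytoplasm, was at 143 and 93.5 against 409, 413 and 443 (log2 fold change 1.83 ± 0.16 SE, adjusted p = 1.23e-06). Tnfaip3, the deubiquitinase A20, was at 79.6 and 30.2 against 637, 665 and 573, with a log2 fold change of 3.51 that became 4.35 without wild type replicate 1. The wild type libraries differed widely from each other in Tnfaip3, and still lay far below every Srsf2 mutated library. Among the subunits, Rel went from 34.8 and 31.3 to 227, 245 and 194 CPM, Relb from 5.57 and 5.56 to 28.3, 26.7 and 26.3, and Nfkb2 from 31.04 and 34.7 to 106, 116 and 86.2. These are c-Rel and the subunits of the non-canonical arm. Nfkb1 was not called (268 and 257 CPM against 241, 244 and 224, log2 fold change -0.15 ± 0.09 SE, adjusted p = 0.197). Traf2, an adaptor of TNF receptors, fell from 61.6 and 63.7 to 27.6, 30.3 and 32.99 CPM. Without Srsf2 mutated replicate 1, 1 subunit or kinase fell in place of 3.

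The promoters of some of these genes carry letters of the NF-kB site, and are shown because their genes moved together. The NF-kB site, with 10 letters of which 2 are free, was searched on both strands and occurs in 1.63% of 32851 RefSeq promoter windows of mouse (250 bases before to 50 after a start, build GRCm38.p6). Counted by gene, it occurs for 1.89% of 27025 genes with a window. It occurs for 3 of 11 feedback inhibitors with a window (2 of the 7 that rose, 1 of the 4 others) and for 3 of 20 cytokines (3 of the 12 that rose, 0 of the 8 others). The 150 bases before the start are given 5′ to 3′ on the gene's strand, with the match in capitals, and a match is no evidence of binding.
Il6 (chr5:30012964-30013113, plus strand): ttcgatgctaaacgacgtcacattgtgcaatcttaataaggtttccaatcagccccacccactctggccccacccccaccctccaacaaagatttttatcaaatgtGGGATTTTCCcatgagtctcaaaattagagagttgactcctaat
Nfkbia (chr12:55492648-55492797, minus strand): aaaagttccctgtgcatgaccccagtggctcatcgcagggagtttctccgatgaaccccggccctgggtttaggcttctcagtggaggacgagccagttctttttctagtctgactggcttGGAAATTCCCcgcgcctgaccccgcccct
Tnfaip3 (chr10:19015411-19015560, minus strand): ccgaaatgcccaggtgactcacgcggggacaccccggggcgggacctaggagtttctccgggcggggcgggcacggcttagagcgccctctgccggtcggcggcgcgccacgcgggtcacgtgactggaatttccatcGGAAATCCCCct
The match begins 44 bases before the start in Il6, 29 before it in Nfkbia and 12 before it in Tnfaip3.

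SOCS and PIM genes, targets of STAT factors of which SOCS proteins block JAK kinases, rose in 6 of 11 and fell in 2 (median 0.71). Socs3 (chr11:117966079-117970047) was at 7.42 and 6.07 CPM in wild type and 506, 535 and 549.8 in Srsf2 mutated (log2 fold change 6.30 ± 0.14 SE, adjusted p = 3.90e-11). Cish was at 2.06 and 2.52 against 58.8, 70.5 and 58.1, Socs1 at 3.88 and 3.86 against 40.04, 42.8 and 46.8, and Socs2 at 2.06 and 2.91 against 23.8, 29.8 and 22.1. The kinase gene Pim1 was at 107 and 100.8 against 649.5, 631 and 699 (6.35-fold higher). All 5 were apart between the groups in every library. JAK and STAT genes themselves fell in 7 of 11, with a median of -0.32 and no member called higher; without Srsf2 mutated replicate 3, 1 was called higher. Stat5a fell from 158 and 145 CPM to 79.7, 77.9 and 80.1 (log2 fold change -0.94 ± 0.10 SE, adjusted p = 5.84e-06), Stat5b from 210.1 and 207 to 145, 159 and 127, and the kinase gene Tyk2 from 111 and 119.9 to 77.1, 86.8 and 68.2. Tyk2 was the only one of the 4 JAK family kinases called, the other falls being STAT genes, and the difference between these lists was not tested.

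Cytokine and growth factor receptors fell in 13 and rose in 9 of 29 tested genes (median -0.21). Csf3r, the G-CSF receptor of granulocytes, was at 251 and 248 CPM in wild type and 176, 184 and 163 in Srsf2 mutated (log2 fold change -0.52 ± 0.10 SE, adjusted p = 6.69e-04), and Il1r1, the signaling receptor for interleukin-1, at 15.9 and 13.6 against 6.03, 4.95 and 3.87. Receptors of other lineages were higher: Il7r, the interleukin-7 receptor of lymphoid progenitors, at 3.05 and 3.16 against 21.02, 23.8 and 23.9, Csf2rb2, a beta chain for interleukin-3, at 18.7 and 23.4 against 107, 123 and 85.3, and Il18r1 at 4.85 and 5.403 against 24.99, 27.5 and 19.99. Toll-like receptors and their adaptors, sensors of microbial products, rose in 4 of 21 and fell in 6, shares near or under the background. Tlr2 (19.0 and 16.6 against 73.5, 79.3 and 77.1 CPM), Tlr13 (4.299 and 3.42 against 23.2, 25.1 and 19.2) and the co-receptor Cd14 (15.8 and 15.7 against 42.8, 45.5 and 59.4) rose. The adaptor gene Ticam2 fell from 20.4 and 22.03 to 10.3, 9.72 and 10.97.

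Inflammasome components, which activate caspase-1, rose in 6 of 14 and fell in 4 (median 0.17). Nlrp3 (chr11:59541568-59566956), the sensor of cell damage, was at 4.39 and 4.57 CPM in wild type and 232, 252 and 204 in Srsf2 mutated (log2 fold change 5.67 ± 0.15 SE, adjusted p = 3.90e-11). No other member rose as far: Aim2, a sensor of cytosolic DNA, went from 25.9 and 22.7 to 60.8, 62.7 and 59.8, and Casp4, the sensor of lipopolysaccharide, from 14.7 and 13.7 to 36.6, 36.8 and 33.9. Naip2, a sensor of bacterial secretion rods, fell from 100.6 and 96.6 to 46.7, 46.5 and 38.7. Interferon-stimulated genes did not move as a group, with 12 of 44 higher and 15 lower (median -0.13). Irf1, which both interferon and NF-kB induce, rose from 41.5 and 41.95 to 242, 240.2 and 264 CPM (log2 fold change 2.58 ± 0.11 SE, adjusted p = 2.14e-09), Rsad2 from 5.15 and 5.13 to 42.7, 45.1 and 40.9, Isg20 from 10.4 and 10.9 to 31.2, 33.4 and 33.4 and Isg15 from 3.56 and 5.89 to 13.4, 12.1 and 14.8. The GTPase gene Irgm2 fell from 19.0 and 16.8 to 5.305, 6.63 and 4.27.

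Effectors of myeloid-derived suppressor cells, the cells in the series title, split into parts. Of 27 tested genes 11 rose and 9 fell (median 0.10), and 4 fell without wild type replicate 2. Ptgs2, which makes prostaglandins, was at 4.299 and 1.82 CPM in wild type and 51.3, 56.5 and 50.6 in Srsf2 mutated (log2 fold change 4.11 ± 0.26 SE, adjusted p = 7.78e-08; log2 value 4.83 without wild type replicate 1). Cd274, the checkpoint ligand PD-L1, was at 8.78 and 6.95 against 29.5, 29.9 and 30.1 (3.79-fold higher). The myeloid receptors Trem1 and Clec4d were at 42.8 and 41.8 against 97.9, 104 and 104 CPM and at 4.39 and 5.03 against 16.4, 16.1 and 17.5. Enzymes that consume arginine were called but stayed low. Nos2 had 0 counts in wild type and 0.248, 0.505 and 0.377 CPM in Srsf2 mutated. Arg2 was at 0.347 and 0.0462 against 1.13, 1.96 and 1.61, and its log2 fold change of 2.98 became 4.98 and 2.15 without wild type replicate 1 or 2. Arg1 was at 0.162 and 0.0924 against 0.745, 0.9499 and 0.326, a call lost without wild type replicate 1 or 2 (adjusted p = 0.0781 and 0.1499). The alarmin subunits, in contrast, were abundant and lower. S100a8 was at 3527 and 4289 CPM against 2636, 2042 and 2922 (log2 fold change -0.63 ± 0.14 SE, adjusted p = 0.00258). S100a9 was at 3925 and 5138 against 3629, 2824 and 3761 (log2 fold change -0.41 ± 0.14 SE, adjusted p = 0.0255), a call lost without wild type replicate 2 or Srsf2 mutated replicate 1 or 2 (adjusted p = 0.265, 0.0793 and 0.1097) and also under upper-quartile scaling (0.0709).

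**Figure D3:**
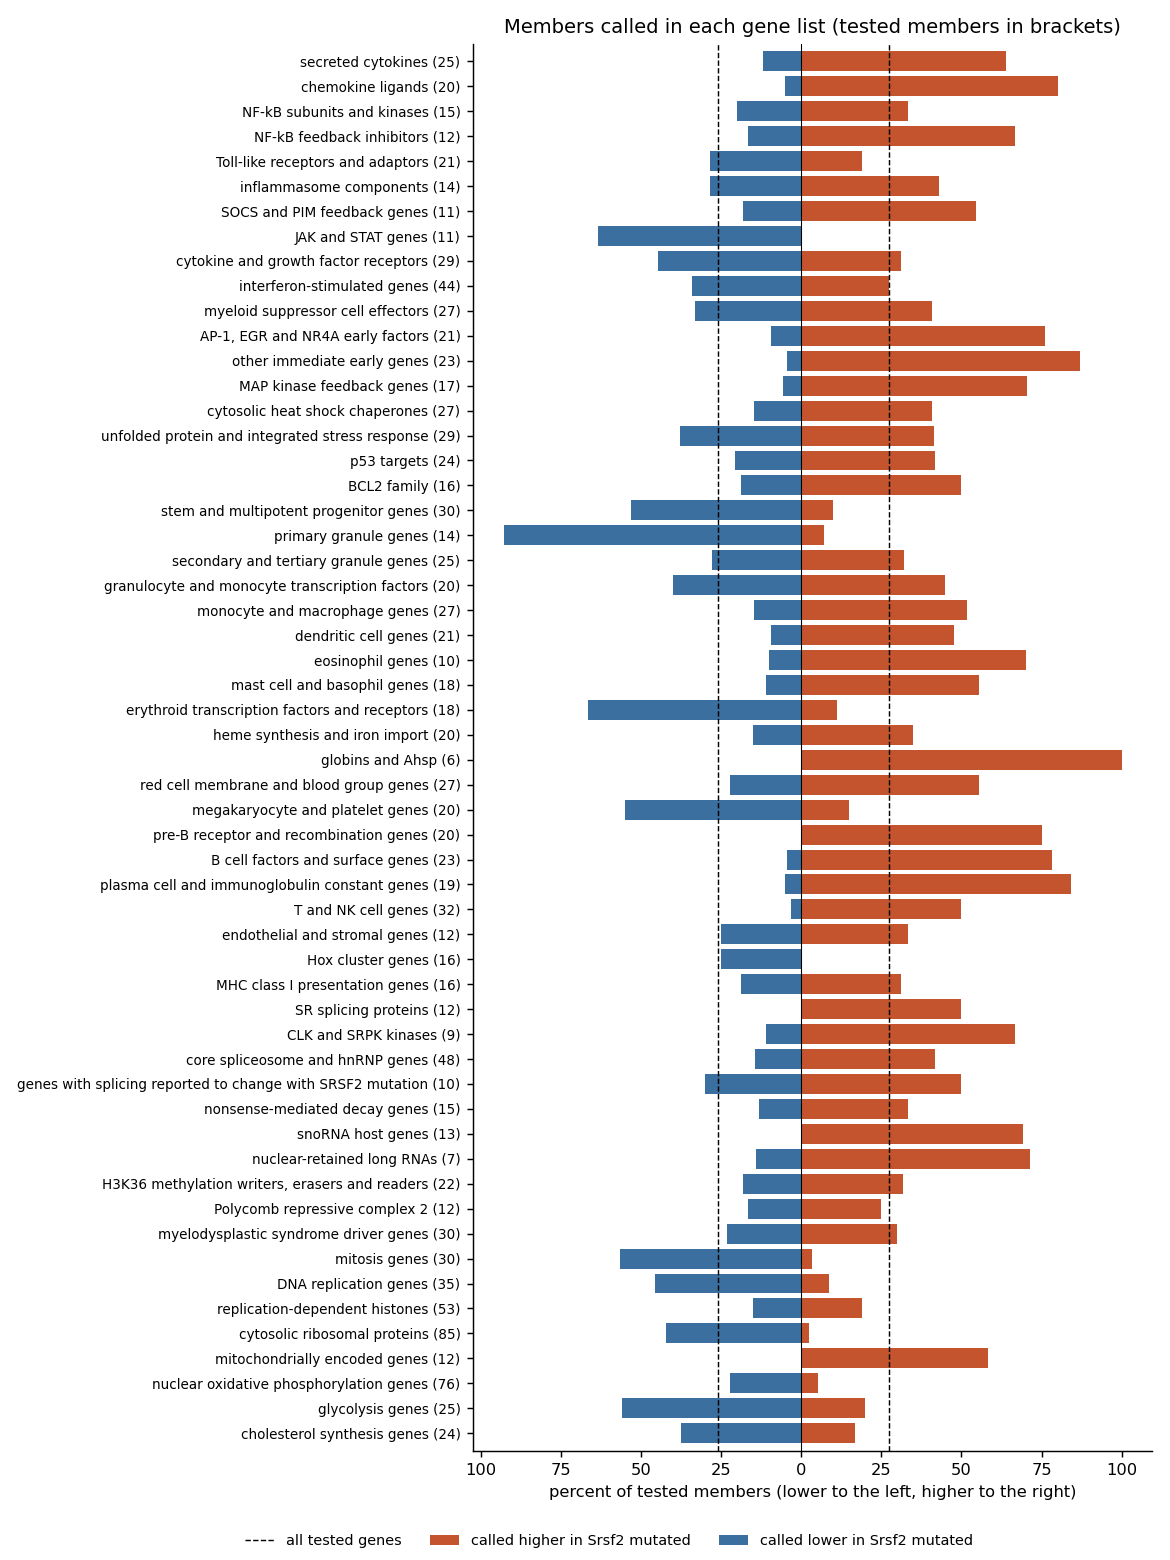
For the gene lists other than the sex-linked one, bars give the percentage of tested members called higher (right) or lower (left) in Srsf2 mutated, with the number of tested members in brackets. Dashed lines mark the 27.5% higher and 26% lower among all tested genes. Globins, other immediate early genes, immunoglobulin constant genes and chemokines lie furthest to the right, and primary granule, erythroid factor and JAK and STAT genes furthest to the left. The globins Hbq1a and Hbq1b passed the filter through the Srsf2 mutated libraries alone.

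Immediate early genes, which cells induce within minutes of a stimulus without new protein synthesis, were broadly higher. Of 21 genes of the AP-1, EGR and NR4A families 16 rose and 2 fell (median 2.64), and of 23 other immediate early genes 20 rose and 1 fell (median 1.80). Egr3, a zinc finger factor, was at 0.601 and 0.785 CPM in wild type and 57.5, 57.4 and 48.3 in Srsf2 mutated (log2 fold change 6.29 ± 0.18 SE, adjusted p = 1.17e-10). Egr2 was at 1.11 and 0.623 against 41.99, 46.3 and 38.4, Nr4a3 at 0.139 and 0.139 against 16.1, 16.4 and 10.6, and Maff at 7.304 and 6.28 against 63.8, 66.1 and 70.4. In none of them did the groups overlap. Several members differed between the wild type libraries as well. Fosb was at 169 and 83.1 against 2567, 2684 and 2305 CPM (log2 fold change 4.32 ± 0.26 SE, adjusted p = 4.96e-08), Junb at 244 and 177 against 1402, 1419 and 1606, and Egr1 at 371 and 147 against 1219.7, 1232 and 1204, with a log2 value of 2.24 that became 3.03 without wild type replicate 1. Atf3 was at 14.7 and 4.04 against 209, 205 and 226, and its log2 value of 4.51 became 5.70 or 3.84 without wild type replicate 1 or 2. Nr4a1 was at 36.5 and 16.8 against 255, 259.7 and 283 (3.32, and 3.96 without wild type replicate 1). Wild type replicate 1 was the higher wild type library in each of these 5.

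Fos did not follow the other AP-1 genes. It was at 771 and 432 CPM in wild type and 589, 598 and 639.9 in Srsf2 mutated, so the wild type libraries lay on either side of the mutated ones (log2 fold change 0.017 ± 0.18 SE, adjusted p = 0.943). Without wild type replicate 1 it was called higher (0.47, adjusted p = 0.0118), and with wild type replicate 2 left out it was a called fall (-0.36, adjusted p = 0.0292). Dusp1, another early gene, also had wild type libraries far apart (517 and 285 against 283, 306 and 322 CPM, log2 fold change -0.40 ± 0.18 SE, adjusted p = 0.07998), and leaving out wild type replicate 2 made it a called fall (-0.79, adjusted p = 6.85e-04). Myc, which drives growth, fell from 394 and 378 CPM to 182, 193 and 204 (log2 fold change -1.0 ± 0.10 SE, adjusted p = 3.24e-06). Among the other early genes, the kinase gene Sgk1 rose from 18.3 and 16.2 to 122, 117 and 134, Zfp36l1, which destabilises mRNAs, from 25.4 and 20.6 to 162, 160.3 and 157, Klf4 from 29.9 and 26.3 to 147, 141 and 155, and Csrnp1 from 43.6 and 41.5 to 185, 200.5 and 213. MAP kinase feedback genes, phosphatases and Sprouty proteins induced by the pathway they inhibit, rose in 12 of 17 and fell in 1 (median 1.55). Dusp16 rose from 5.201 and 4.78 to 58.8, 58.5 and 46.0 CPM, Dusp4 from 1.11 and 0.6003 to 21.5, 20.6 and 19.2, Dusp10 from 2.54 and 2.24 to 20.1, 21.6 and 23.03 and Dusp8 from 0.139 and 0.0693 to 7.47, 6.104 and 6.03. The small counts of falls moved when 1 library was left out: to 1 in the AP-1 group without Srsf2 mutated replicate 1 or 2, to 0 in the other early genes without wild type replicate 1 or Srsf2 mutated replicate 1 or 2 and to 2 without Srsf2 mutated replicate 3, and to 2 in the feedback genes without wild type replicate 2.

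The promoter of Egr2 is shown as a gene of this set with a serum response element core, the CArG box, which SRF binds. CArG boxes occur in 1.63% of all windows and for 1.81% of all genes with a window. Of the 17 early factors with a window 2 hold one: 1 of the 13 that rose, Egr2, and 1 of the 4 others, Srf, which was not called. The cyclic AMP response element TGACGTCA occurs in 1.79% of all windows, for 2.03% of all genes with a window and for 1 of the 17, Maff, which rose. The capitals mark the CArG box, which begins 72 bases before the start of this Egr2 window.
Egr2 (chr10:67537719-67537868, plus strand): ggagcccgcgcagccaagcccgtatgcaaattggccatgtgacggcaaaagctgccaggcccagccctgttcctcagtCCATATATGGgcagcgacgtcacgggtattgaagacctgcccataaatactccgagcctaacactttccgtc

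Heat shock chaperones, which refold damaged proteins and here are cytosolic or, like Hspd1, mitochondrial, rose in 11 of 27 and fell in 4 (median 0.23). The HSP70 genes Hspa1a and Hspa1b rose furthest among the abundant members. Hspa1a, the inducible HSP70, was at 2.22 and 2.54 CPM in wild type and 146, 137 and 144 in Srsf2 mutated (log2 fold change 5.90 ± 0.14 SE, adjusted p = 3.90e-11). Its neighbour Hspa1b was at 9.48 and 10.9 against 363, 358 and 409 (log2 fold change 5.21 ± 0.14 SE, adjusted p = 3.90e-11). These genes are near-identical copies, and how the authors' counting split reads between them is uncertain. Hspb1, a small heat shock protein, had 0 counts in wild type and 0.948, 0.829 and 1.13 CPM in Srsf2 mutated, at least 27.96-fold higher. The other rises were small: the HSP40 genes Dnajb4 and Dnajb1 went from 22.1 and 17.9 to 46.1, 46.2 and 48.6 CPM and from 124 and 118 to 243, 230.1 and 253, and the mitochondrial chaperonin Hspd1 from 465 and 457 to 598, 564 and 637. Falls numbered 2 without wild type replicate 1, and 1 without Srsf2 mutated replicate 1 or 2. The heat shock element, bound by HSF1, was searched as GAANNTTC or TTCNNGAA. It occurs in 15.1% of all windows and for 17.0% of all genes with a window. Of the 22 chaperone genes with a window 13 hold it: 8 of the 10 that rose and 5 of the 12 others. The promoters of Hspa1a and Hspd1 are shown as a large and a small rise with the element in capitals. Hspd1 holds 3 matches. The same bases lie in the window of Hspe1 on the other strand, which was not called, so they count under both the rises and the others. Hspa1b differs from Hspa1a at 1 of these 150 bases.
Hspa1a (chr17:34972157-34972306, minus strand): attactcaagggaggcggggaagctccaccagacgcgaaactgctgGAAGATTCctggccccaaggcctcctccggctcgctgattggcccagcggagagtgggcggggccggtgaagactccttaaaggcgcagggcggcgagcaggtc
Hspd1 (chr1:55087933-55088082, minus strand): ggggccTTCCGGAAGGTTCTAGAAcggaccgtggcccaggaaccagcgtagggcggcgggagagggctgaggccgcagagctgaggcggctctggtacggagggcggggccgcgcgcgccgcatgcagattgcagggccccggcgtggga

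Of 29 genes of the unfolded protein and integrated stress responses, 12 rose and 11 fell (median -0.07). The factor gene Atf4 rose from 275 and 245 CPM to 568, 551 and 653 (log2 fold change 1.19 ± 0.11 SE, adjusted p = 3.03e-06), and so did its targets Ddit3 (CHOP, 10.3 and 9.91 to 29.4, 33.2 and 36.4), Trib3 (0.6703 and 0.762 to 3.72, 5.58 and 6.001), Slc7a11 (1.43 and 2.15 to 9.503, 8.95 and 7.53) and Ddit4 (16.0 and 15.9 to 45.5, 46.3 and 45.4). Asns, another target of ATF4, fell. The luminal chaperone genes Calr, Canx, Hyou1, Manf, Pdia3, Pdia4, Sdf2l1 and Dnajc3 and the factor Xbp1 were among the 11 that fell, while Hspa5 rose. Of 24 p53 targets 10 rose and 5 fell (median 0.38), and 3 fell without wild type replicate 2. Cdkn1a, the cell cycle inhibitor p21, went from 16.5 and 13.4 to 98.7, 114 and 112 CPM (log2 fold change 2.86 ± 0.13 SE, adjusted p = 5.90e-09). Bbc3 and Pmaip1, the BH3-only proteins PUMA and NOXA that trigger apoptosis, went from 9.52 and 9.47 to 54.9, 55.1 and 64.6 and from 9.89 and 6.58 to 84.7, 81.5 and 90.4, and Trp53inp1 from 24.1 and 23.7 to 71.2, 75.5 and 74.8. The level of Trp53 itself fell from 273 and 272 to 168, 176 and 179. In the BCL2 family 8 of 16 rose and 3 fell (median 0.99), and 1 fell without wild type replicate 2 or Srsf2 mutated replicate 1. Mcl1, which protects HSPCs from apoptosis, rose from 274 and 238 to 903, 952 and 999 CPM (log2 fold change 1.89 ± 0.11 SE, adjusted p = 4.09e-08), beside the death-promoting Bbc3 and Pmaip1, which belong to both lists.

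**Figure D4:**
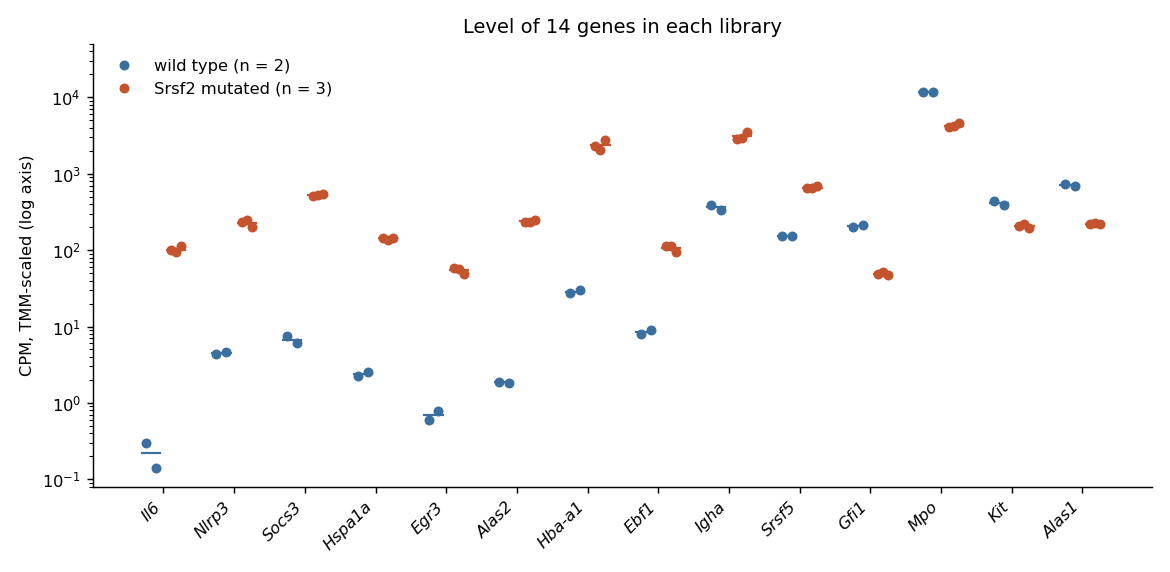
CPM (log axis) of 14 genes in each library, with wild type (n = 2) in blue, Srsf2 mutated (n = 3) in red and a bar at each group mean. From Il6 to Srsf5 every Srsf2 mutated library lies above both wild type libraries, and from Gfi1 to Alas1 every one lies below.

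Genes of early granulocyte maturation fell. Primary granule genes, made in promyelocytes, fell in 13 of 14 tested and rose in 1 (median -1.2), and together they took 3.07% and 3.07% of counts in wild type and 1.39%, 1.38% and 1.54% in Srsf2 mutated. Mpo, the myeloperoxidase, was at 11689 and 11703 CPM in wild type and 4066, 4171 and 4594 in Srsf2 mutated (log2 fold change -1.45 ± 0.10 SE, adjusted p = 1.24e-07). Elane, the neutrophil elastase, was at 6818 and 6288 against 2174, 2091 and 2506 (log2 fold change -1.54 ± 0.10 SE, adjusted p = 1.76e-07), the serine protease Prss57 at 263 and 255 against 70.4, 73.6 and 76.7, and Ms4a3, a marker of granulocyte and monocyte progenitors, at 698 and 687 against 266, 227 and 298. Every Srsf2 mutated library was lower in all 4. Granulocyte and monocyte transcription factors rose in 9 of 20 and fell in 8, with a median of 0.07. Gfi1 (chr5:107716657-107726036), the repressor that directs progenitors to neutrophils, was at 202 and 211 against 48.5, 51.8 and 47.3 CPM (log2 fold change -2.07 ± 0.10 SE, adjusted p = 5.81e-09). Of the C/EBP factors, Cebpa fell from 335 and 348 to 134, 145 and 164, Cebpe from 162 and 232 to 68.01, 59.5 and 86.6 and Cebpd from 118 and 155 to 83.3, 81.6 and 95.8. Cebpb, the factor of emergency granulopoiesis, was at 63.5 and 86.7 against 112, 114 and 155 and was called higher, a call lost without wild type replicate 1 (adjusted p = 0.0602). Id1, an inhibitor of differentiation factors, rose from 7.49 and 12.2 to 87.7, 91.6 and 106. Irf8, the factor of monocyte fate, was at 274 and 302 against 255, 259 and 267 and was not called (log2 fold change -0.14 ± 0.09 SE, adjusted p = 0.218).

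Later granule genes showed no common direction, with 8 of 25 higher and 7 lower (median 0.06), and 4 lower without wild type replicate 2 or Srsf2 mutated replicate 1. The collagenase Mmp8 went from 26.5 and 23.1 CPM to 162, 157 and 155 (log2 fold change 2.67 ± 0.11 SE, adjusted p = 2.58e-09), the gelatinase Mmp9 from 88.1 and 108 to 309, 331 and 301, Retnlg from 24.1 and 19.7 to 172, 160.4 and 203, and Fpr1, the receptor for formyl peptides, from 1.64 and 2.54 to 10.5, 9.32 and 11.7. Ngp, an abundant granule protein, was at 4889 and 6823 against 4153, 3965 and 4744, a call of a fall that was lost without wild type replicate 2 or Srsf2 mutated replicate 1 (adjusted p = 0.186 and 0.1002). Camp, the cathelicidin, was at 1415 and 2545 against 1495, 1392 and 1703 and was not called (log2 fold change -0.37 ± 0.19 SE, adjusted p = 0.109). Wild type replicate 2 was the higher wild type library for Ngp and Camp, and Camp became a called fall once wild type replicate 1 was left out (-0.76, adjusted p = 0.00111). Ly6g, a surface marker of neutrophils, was at 20.9 and 31.3 against 38.1, 38.5 and 45.5 and was called higher, but not without wild type replicate 1 (adjusted p = 0.108).

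Monocyte and macrophage genes rose in 14 of 27 and fell in 4 (median 0.56). Ctss, a lysosomal protease, went from 29.6 and 32.6 CPM to 99.2, 92.7 and 108 (log2 fold change 1.68 ± 0.11 SE, adjusted p = 1.75e-07), and fibronectin (Fn1) from 17.2 and 16.3 to 92.2, 98.97 and 63.7. Vcam1, an adhesion receptor of marrow macrophages, fell from 120.0 and 117 to 34.2, 37.1 and 36.01 (log2 fold change -1.73 ± 0.10 SE, adjusted p = 3.36e-08). Dendritic cell genes rose in 10 of 21 and fell in 2 (median 0.67). Irf4, a factor of dendritic cells, B cells and plasma cells, went from 2.96 and 4.32 to 115, 116 and 102 (log2 fold change 4.93 ± 0.17 SE, adjusted p = 4.81e-10), and Cd74, the chaperone of MHC class II, from 130.4 and 139.9 to 225, 240.0 and 259, while the receptor gene Flt3 fell from 85.7 and 79.5 to 43.1, 41.5 and 44.5. Eosinophil genes rose in 7 of 10 and fell in 1 (median 0.85; 2 fell without wild type replicate 2 or Srsf2 mutated replicate 3). Alox15, a lipoxygenase, went from 11.1 and 6.72 to 86.6, 88.7 and 91.2 (log2 fold change 3.32 ± 0.18 SE, adjusted p = 2.64e-08) and Prg2, the major basic protein, from 447 and 456 to 907, 817 and 1002. Epx, the eosinophil peroxidase, went the other way without a call (369.9 and 266 against 252, 253 and 264, log2 fold change -0.31 ± 0.13 SE, adjusted p = 0.055), and became a called fall with wild type replicate 2 or Srsf2 mutated replicate 3 left out (adjusted p = 0.00417 and 0.042). Mast cell and basophil genes rose in 10 of 18 and fell in 2 (median 0.89; 1 fell without wild type replicate 1). The steroid enzyme gene Cyp11a1 went from 4.11 and 4.62 to 73.4, 72.4 and 67.2 (log2 fold change 4.02 ± 0.13 SE, adjusted p = 3.03e-10), the basophil protease Prss34 from 66.3 and 90.9 to 497, 456 and 549.6, and granzyme B (Gzmb) from 3.33 and 3.93 to 28.8, 25.8 and 28.2.

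Red cell genes split by list, and the stage of the cells was not measured. Erythroid transcription factors and receptors fell in 12 of 18 and rose in 2 (median -0.50), while all 6 tested globins rose (median 6.0). The globin list held 11 genes, and the others were not tested. Hbq1a had 0 counts in wild type and Hbq1b 3, so both passed the filter through the mutated libraries alone. Their rise follows largely from that. Red cell membrane and blood group genes rose in 15 of 27 and fell in 6 (median 0.37). Gfi1b, a repressor needed for red cell and megakaryocyte maturation, was at 37.4 and 33.4 CPM in wild type and 9.21, 9.22 and 8.01 in Srsf2 mutated (log2 fold change -2.0 ± 0.13 SE, adjusted p = 8.33e-08). Nfe2, a factor of globin genes and platelets, was at 211 and 241 against 102, 97.5 and 112, Tal1 at 99.5 and 99.97 against 48.9, 55.5 and 51.4, Klf1 at 47.9 and 52.02 against 20.6, 16.4 and 26.6, and Gata1, the master factor of the lineage, at 42.9 and 45.02 against 26.5, 28.5 and 32.1. All 5 were lower in every Srsf2 mutated library. Globins and several other products of late erythroblasts and reticulocytes went the other way. Alpha globin Hba-a1 was at 27.4 and 29.7 against 2299.9, 2055 and 2739 CPM (log2 fold change 6.37 ± 0.17 SE, adjusted p = 3.90e-11), and beta globin Hbb-bs at 45.01 and 42.8 against 2893, 2639 and 3427 (log2 fold change 6.09 ± 0.16 SE, adjusted p = 3.90e-11). Hba-a2, a near-identical copy of Hba-a1 whose reads may be split between them, was at 7.95 and 7.204 against 141, 24.6 and 167, with replicate 2 far below the other Srsf2 mutated libraries. Slc4a1 (chr11:102348824-102366203), the anion exchanger band 3, was at 1.06 and 1.73 against 316, 325 and 282 (log2 fold change 7.78 ± 0.20 SE, adjusted p = 3.90e-11), the cytoskeletal genes Dmtn and Epb42 at 1.06 and 1.15 against 21.8, 20.2 and 19.5 and at 1.202 and 1.39 against 23.1, 21.97 and 20.9, and Bpgm, which sets oxygen affinity, at 15.97 and 15.9 against 108, 98.7 and 119.

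The enzymes that start heme synthesis moved in opposite directions. Alas2 (chrX:150547375-150570638), the first enzyme of heme synthesis in red cells, was at 1.895 and 1.85 CPM in wild type and 234, 230.4 and 251 in Srsf2 mutated (log2 fold change 6.99 ± 0.14 SE, adjusted p = 2.24e-11). Alas1, the form used by other cells, was at 735 and 697 against 219.8, 225 and 219 (log2 fold change -1.69 ± 0.09 SE, adjusted p = 2.20e-08). Of the 20 heme and iron import genes 7 rose, 3 fell and 10 were not called (median 0.04), the falls being Alas1, the mitochondrial transporter Abcb10 (109 and 108 against 52.5, 55.4 and 49.5) and the ferrireductase Steap3 (75.1 and 74.5 against 42.2, 40.4 and 42.9); without Srsf2 mutated replicate 3 there were 6 falls. Per gene length, the deposited FPKM of Hbb-bs was 54.6 ± 2.18 (SD, n = 2) in wild type and 4006 ± 485 (SD, n = 3) in Srsf2 mutated, against 3261 ± 11.03 and 1288 ± 71.1 for Mpo, so beta globin was above myeloperoxidase in the mutated libraries and far below it in the wild type ones. Together the globins took 0.00847% and 0.00829% of counts in wild type and 0.598%, 0.534% and 0.690% in Srsf2 mutated. The GATA letters AGATAAG occur in 3.04% of all promoter windows and for 3.50% of all genes with a window. They occur for 4 of 19 membrane genes with a window and for 1 of 9 globin genes.

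**Figure D5:**
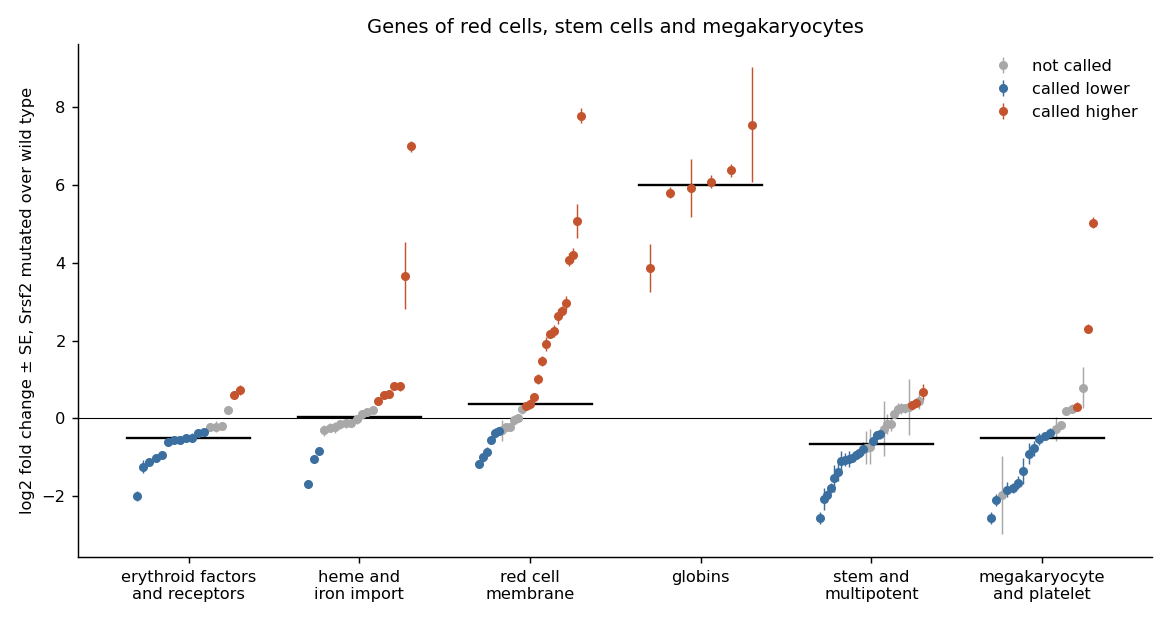
Log2 fold change of each tested member (points, with SE) of 6 gene lists, sorted within the list, with the list's median as a black bar. Globins lie at a median of 6.0 and the erythroid factors at -0.50, and the membrane genes span from -1.18 to 7.78. The globins Hbq1a and Hbq1b passed the filter through the Srsf2 mutated libraries alone.

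Stem cell and megakaryocyte genes were mostly lower. Stem and multipotent progenitor genes fell in 16 of 30 and rose in 3 (median -0.65), and the rises numbered 0 without wild type replicate 2, 1 without Srsf2 mutated replicate 1 and 5 without Srsf2 mutated replicate 2. Hlf, a factor of long-term stem cells, was at 38.7 and 38.1 CPM in wild type and 10.7, 9.78 and 9.01 in Srsf2 mutated (log2 fold change -1.97 ± 0.12 SE, adjusted p = 6.67e-08). Vwf, the von Willebrand factor of platelet-biased stem cells, was at 39.2 and 37.7 against 11.9, 12.1 and 9.29, Esam at 5.02 and 4.99 against 0.925, 1.07 and 1.56, Procr (EPCR) at 2.404 and 2.79 against 0.971, 0.748 and 0.954, and Mecom (EVI1) at 6.703 and 5.98 against 3.16, 3.29 and 2.79. These stem cell genes and Kit and Flt3 were lower in every Srsf2 mutated library. Megakaryocyte and platelet genes fell in 11 of 20 and rose in 3 (median -0.50), with 7 falls without wild type replicate 1. Gp5, a subunit of the von Willebrand factor receptor, was at 20.7 and 20.5 against 4.79, 5.396 and 4.19 (log2 fold change -2.10 ± 0.15 SE, adjusted p = 3.09e-07). Thbs1, thrombospondin, which platelets store and which monocytes also make, was at 8.298 and 8.43 against 278, 304 and 238 (log2 fold change 5.03 ± 0.15 SE, adjusted p = 1.10e-10), and Plek, a platelet and leukocyte kinase substrate, at 90.9 and 83.2 against 429, 449 and 416. Of 16 tested Hox cluster and cofactor genes 4 fell and 0 rose (median -0.22). The falls numbered 2 without wild type replicate 1 or 2 or Srsf2 mutated replicate 1 or 2, and 1 gene was called higher without Srsf2 mutated replicate 1.

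B lineage genes rose at every stage listed. Pre-B receptor and recombination genes rose in 15 of 20 with 0 falls (median 1.42; 1 fall without Srsf2 mutated replicate 2), and B cell factors and surface genes in 18 of 23 with 1 fall (median 2.05; 0 falls without wild type replicate 1 or 2 or Srsf2 mutated replicate 1). Plasma cell and immunoglobulin constant genes rose in 16 of 19 with 1 fall (median 2.66). Vpreb1 and Igll1, the surrogate light chain of pre-B cells, were at 8.25 and 10.9 CPM against 150.5, 128 and 158 and at 12.3 and 15.7 against 158, 147 and 177. Blnk, an adaptor of the B cell receptor, was at 7.49 and 7.94 against 86.1, 90.97 and 90.97 (log2 fold change 3.53 ± 0.12 SE, adjusted p = 4.17e-10). Of the recombination genes, Rag1 was at 11.2 and 12.1 against 64.2, 65.4 and 48.8, Dntt at 66.9 and 73.3 against 198, 178 and 225, and Rag2 at 2.08 and 2.31 against 5.21, 3.84 and 3.77, a call lost without wild type replicate 1 (adjusted p = 0.0696). The commitment factors Ebf1 and Pax5 were at 7.86 and 8.89 against 114, 114 and 95.7 and at 9.73 and 10.7 against 167, 160.4 and 114. Pou2af1, Lef1 and Bach2 rose by 8.59-fold, 9.73-fold and 8.28-fold. Late products rose as well. Igha, the IgA heavy chain, was at 389 and 337 against 2872, 2967 and 3478 (log2 fold change 3.10 ± 0.13 SE, adjusted p = 2.24e-09), Igkc at 230.0 and 184 against 968, 910.3 and 1162, and Iglc1 at 4.11 and 3.58 against 66.2, 50.9 and 71.2. Ighg1 had 2 counts in wild type and 33.5, 30.01 and 36.5 CPM in Srsf2 mutated, a ratio of 1432-fold with a counting interval of 396 to 11831. Of 166 variable segments 145 rose and 3 fell, with reads of similar segments not always separable. Immunoglobulin constant genes took 0.0985% and 0.0869% of counts in wild type and 0.494% to 0.577% in Srsf2 mutated.

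T and NK cell genes rose in 16 of 32 and fell in 1 (median 1.31; 2 fell without Srsf2 mutated replicate 2), from low levels. Cd2 was at 0.231 and 0.277 CPM in wild type and 3.68, 3.21 and 3.31 in Srsf2 mutated. For Cd3e the ratio was 42.8-fold with a counting interval of 7.41 to 1714, and Cd3g was at least 22.1-fold higher. Nkg7, named for NK cells and also a gene of granulocyte progenitors, was the member that fell, from 406 and 372 to 143, 136 and 174 (log2 fold change -1.36 ± 0.11 SE, adjusted p = 1.10e-06). It was the most abundant member in wild type, and the list's summed level was 495 to 512 CPM in wild type and 362 to 386 CPM in Srsf2 mutated, so the sum was lower while 16 members rose.

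Splicing genes themselves were shifted upward in part. SR proteins, the family of SRSF2, rose in 6 of 12 tested and fell in 0 (median 0.31). Srsf5 was at 152 and 154 CPM in wild type and 647, 644 and 690.3 in Srsf2 mutated (log2 fold change 2.11 ± 0.10 SE, adjusted p = 7.66e-09), Srsf11 at 199 and 187 against 359.8, 369 and 331, Tra2a at 161 and 156 against 263, 251 and 253, and Tra2b at 296 and 280.3 against 386, 376 and 406. CLK and SRPK kinases, which phosphorylate SR proteins, rose in 6 of 9 and fell in 1 (median 0.62; 0 falls without wild type replicate 1). Clk1 was at 73.6 and 57.7 against 287, 306 and 290.2 (log2 fold change 2.16 ± 0.12 SE, adjusted p = 3.29e-08), Clk4 at 33.4 and 29.9 against 103, 101 and 105, and Clk3 at 46.4 and 49.3 against 77.8, 85.5 and 69.8. Core spliceosome and hnRNP genes rose in 20 of 48 and fell in 7 (median 0.16), with 4 falls without wild type replicate 1 and 11 without Srsf2 mutated replicate 3. Hnrnph1 was at 287 and 298 against 986, 975 and 970.4 (log2 fold change 1.74 ± 0.10 SE, adjusted p = 3.16e-08), Hnrnpa1 at 525 and 615 against 1072, 1035 and 1103, and the minor splice site factor Zrsr2 at 22.5 and 25.01 against 53.5, 56.3 and 53.6. Sf3b1 and U2af1, mutated in myelodysplastic syndrome like SRSF2, rose by 1.43-fold and 1.34-fold. Several of these genes are known to hold exons or introns that feed back on their own mRNA, and counts per gene do not separate such forms.

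Genes whose splicing is reported to change with SRSF2 mutation were examined for level only, since counts per gene hold no splice junctions. Of 10 such genes 5 rose and 3 fell (median 0.20); over all tested genes 53.4% changed. Ezh2, the methyltransferase of Polycomb repressive complex 2, for which a poison exon is described, was not lower: it stood at 149.9 and 142 CPM in wild type and 192, 179 and 204 in Srsf2 mutated (log2 fold change 0.39 ± 0.10 SE, adjusted p = 0.00536), a call of a rise that was lost without wild type replicate 2 (adjusted p = 0.0747). Ints3, an Integrator subunit, fell from 134 and 133 to 79.8, 80.2 and 72.5 (log2 fold change -0.78 ± 0.10 SE, adjusted p = 2.96e-05). Csf3r fell as given above, Hnrnpa2b1 rose from 1077 and 1101 to 1718, 1664 and 1842, Fyb from 27.5 and 25.2 to 59.5, 65.7 and 49.4, and Ikzf3, a lymphoid factor, from 2.47 and 2.96 to 22.3, 25.3 and 15.7. Nonsense-mediated decay genes, whose pathway degrades mRNAs with early stop codons, rose in 5 of 15 and fell in 2 (median 0.11), with Upf3b at 34.2 and 33.4 against 58.1, 55.5 and 62.8 CPM and the exon junction gene Rbm8a at 57.5 and 70.2 against 118, 103 and 131.

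Long RNAs that stay in the nucleus were higher, beside the rise of intronic and antisense gene models given above. Nuclear-retained long RNAs rose in 5 of 7 tested and fell in 1 (median 1.51; 0 falls without wild type replicate 1 or Srsf2 mutated replicate 1). Malat1, found in nuclear speckles, was at 51.1 and 76.4 CPM in wild type and 796, 887 and 539 in Srsf2 mutated (log2 fold change 3.54 ± 0.23 SE, adjusted p = 1.01e-07), with replicate 3 the lowest mutated library. Neat1, the scaffold of paraspeckles, was at 9.5 and 12.4 against 103, 113 and 103 (log2 fold change 3.28 ± 0.14 SE, adjusted p = 2.73e-09). Host genes of small nucleolar RNAs, whose transcripts are targets of nonsense-mediated decay, rose in 9 of 13 with 0 falls (median 0.74). Snhg15 was at 11.05 and 11.7 against 36.3, 42.1 and 45.6 and Snhg17 at 20.99 and 18.4 against 54.7, 56.04 and 48.96.

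Chromatin genes tied to the study's subject showed counts near the background. Writers, erasers and readers of H3K36 methylation, the mark placed by SETD2, rose in 7 of 22 and fell in 4 (median -0.03), and the rises numbered 2 and 3 without wild type replicate 1 or 2. The demethylase gene Kdm2b was at 138 and 134 CPM in wild type and 81.6, 90.7 and 71.97 in Srsf2 mutated (log2 fold change -0.74 ± 0.11 SE, adjusted p = 1.36e-04), and Kdm8 at 16.3 and 17.5 against 8.35, 7.28 and 7.96. Polycomb repressive complex 2 genes rose in 3 of 12 and fell in 2 (median 0.03), with 1 rise without wild type replicate 2 and 1 fall without wild type replicate 1 or 2. Among 30 genes mutated in myelodysplastic syndromes 9 rose and 7 fell (median -0.02), with 4 falls without wild type replicate 1 or Srsf2 mutated replicate 1. Bcorl1, a Polycomb-associated corepressor, fell from 53.1 and 51.3 to 15.7, 16.2 and 14.6 (log2 fold change -1.75 ± 0.11 SE, adjusted p = 6.43e-08), and the metabolic enzyme gene Idh1 from 112 and 108 to 63.1, 66.3 and 64.5. Tet2, which oxidises methylated DNA, rose from 28.4 and 26.1 to 86.3, 93.5 and 54.6 (log2 fold change 1.52 ± 0.19 SE, adjusted p = 3.25e-05), with replicate 3 the lowest mutated library, as it was for Setd2 and Malat1.

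Genes of division and growth were lower in part. Of 30 mitosis genes 17 fell and 1 rose (median -0.27), with 5 rises without Srsf2 mutated replicate 3. Plk1, the kinase of mitotic entry, was at 121 and 129 CPM in wild type and 51.9, 48.6 and 56.1 in Srsf2 mutated (log2 fold change -1.26 ± 0.10 SE, adjusted p = 8.55e-07), Aurka at 101.4 and 103 against 46.5, 50.2 and 56.6, and Cdc20 at 188 and 195 against 126, 127 and 141. Kif23, a motor of cell division, was the member that rose, from 82.9 and 82.5 to 127, 119.8 and 121. Mki67, the proliferation marker Ki-67, was at 715 and 721 against 966, 979 and 682 and was not called (log2 fold change 0.29 ± 0.14 SE, adjusted p = 0.105). Srsf2 mutated replicates 1 and 2 lay above wild type and replicate 3 below it, and without replicate 3 Mki67 was called higher (0.44, adjusted p = 0.001301). DNA replication genes fell in 16 of 35 and rose in 3 (median -0.26), with 1 rise without wild type replicate 1 and 9 falls without wild type replicate 2. The licensing factor gene Cdt1 went from 268 and 258 to 142, 152 and 150.1 CPM and Cdc45, a part of the replicative helicase, from 128 and 124 to 70.2, 66.8 and 73.1.

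Ribosomal protein genes fell in 36 of 85 and rose in 2 (median -0.27). The falls numbered 22 without Srsf2 mutated replicate 1 and 59 without Srsf2 mutated replicate 3, and the rises 5 without Srsf2 mutated replicate 2. Rps7 was at 1372 and 1196 CPM against 695, 629 and 787 and Rpl39 at 643 and 530.5 against 275, 210.2 and 288; many of these genes have processed pseudogenes that can share their reads. Mitochondrially encoded genes rose in 7 of 12 with 0 falls (median 0.58), and in 3 without wild type replicate 2. Nuclear genes of oxidative phosphorylation fell in 17 of 76 and rose in 4 (median -0.12). Their falls numbered 9 and 8 without wild type replicate 1 or 2 and 34 without Srsf2 mutated replicate 3, and their rises 2 without wild type replicate 1 and 9 without Srsf2 mutated replicate 2. Glycolysis genes fell in 14 of 25 and rose in 5 (median -0.37). Ldhb fell from 38.1 and 39.5 to 12.4, 14.8 and 16.02 (log2 fold change -1.43 ± 0.13 SE, adjusted p = 1.67e-06), while the glucose transporter gene Slc2a1, also a red cell membrane gene, rose from 15.02 and 17.1 to 44.5, 47.8 and 41.7, and Gapdh from 100.8 and 113 to 218, 194 and 237.

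The genes with the largest fold changes among those of at least 5 CPM in the higher group came from several of these sets and beyond them. The 12 highest held the Y-linked Ddx3y, Eif2s3y, Kdm5d and Uty, then Apol11a, Ighg1, Apol11b, Slfn14, Il6, Ypel4, Samd11 and Slc4a1. Apol11a and Apol11b, apolipoprotein L genes whose similar copies may share reads, stood at 0 counts against 6.23, 6.06 and 9.04 CPM (at least 205-fold) and at 0.0925 and 0.0462 against 48.03, 44.8 and 51.9. Slfn14, a Schlafen endoribonuclease tied to platelets and red cells, had 1 count in wild type and 7.74, 6.35 and 7.68 CPM in Srsf2 mutated, a ratio of 624-fold with a counting interval of 112 to 24672. Ypel4, with 2 wild type counts, stood at 10.4, 8.85 and 9.74 (a ratio of 417-fold with a counting interval of 115 to 3447), and Samd11, with 1, at 4.67, 6.31 and 4.14 (443-fold with a counting interval of 79.3 to 17531). Fitted fold changes are not given for Ighg1, Slfn14, Ypel4 and Samd11, which had 1 or 2 wild type counts. Leaving out wild type replicate 1 or 2 moved each by over 1.5 times. The fitted rise of Il6, printed above, also moved without wild type replicate 1 and is not stable either.

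The largest falls held Xist and then genes with smaller changes. Chit1, the macrophage chitinase, was at 11.3 and 14.1 CPM in wild type and 0.429, 0.647 and 0.753 in Srsf2 mutated (log2 fold change -4.38 ± 0.25 SE, adjusted p = 3.12e-08). Tshr, the thyrotropin receptor, was at 7.47 and 6.696 against 0.564, 0.768 and 0.804, and Clu, the extracellular chaperone clusterin, at 6.17 and 5.33 against 1.02, 0.566 and 0.527. The lectin receptor Clec4b2 was at 9.87 and 9.56 against 1.44, 1.64 and 1.26, and the nuclear receptor Hnf4a at 5.57 and 6.72 against 1.17, 0.9903 and 0.653. All lay below the wild type range in every mutated library. The tetraspanin Tspan9 fell by 6.49-fold, the myosin Myo18b by 5.65-fold, the antioxidant enzyme Gpx3 by 5.603-fold (from 36.6 and 37.8 to 5.98, 5.86 and 8.14 CPM) and the membrane protein Tmem273 by 5.37-fold.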

How the data were processed

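Bulk RNA-seq of mouse bone marrow HSPCs was analysed in 5 libraries, wild type (n = 2) and Srsf2 mutated (n = 3). The 3 single-cell samples were not analysed here. The 5 further bulk libraries, of Setd2 knockout and double mutant genotype, entered only an alternative fit. The deposited tables hold whole-number read counts per gene and, per the file headers, FPKM; dividing counts by gene length and total gave the same FPKM to within 0.1% for every value. The submitters' processing notes name the aligners HISAT2 2.0.5 and STAR 2.6.1a, the counters HTSeq 0.9.1 and featureCounts 2.0.1, and the tools SAMtools 1.7, DESeq2 1.22.2 and Seurat 3.2.0, with no role given; strandedness is not given in the sources used here, so reads of a gene and of an antisense or overlapping gene may not be told apart. The authors' deposited fold changes and p-values were not used. The table held 55421 genes, of which 55240 were in GENCODE M21 (GRCm38); 27 symbols turned into dates were restored.

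Counts were filtered with filterByExpr, scaled by TMM and tested with the quasi-likelihood test of edgeR 4.0.16 (R 4.3.3), fitted on the 5 libraries alone because the comparison concerns these and their spread is their own. The test was also run on simulated counts in which only few genes differed. Those counts lack the broad change seen here, so that run does not check the calls or the scaling under it. P-values were adjusted by the Benjamini-Hochberg method over 17437 genes. CPM is TMM-scaled, fold changes are given with the fit's SE, and for genes with 1 to 3 wild type counts the ratio of summed counts is given with an exact 95% interval; intervals and the floor of 3 counts cover counting error only. A printed adjusted p is two-sided. Gene lists (57) are described by counts and median only. The groups share replicate numbers 1 and 2, but nothing says that they pair libraries. Alternatives were other scalings, filters, tools, a fit over 10 libraries, and each library left out; the fit of protein-coding genes alone was chosen after seeing the data.

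The comparison and the gene lists were chosen with earlier results of these data known. Genes were named by a rule: 11 always (Srsf2, Setd2, Ezh2, Csf3r, Xist, Ddx3y, Il6, Il1b, Mpo, Kit, Mki67), the 12 largest called changes per direction with at least 5 CPM in the higher group and no overlap (predicted genes and receptor segments left out), and per list the 4 called members of smallest adjusted p, the 2 highest members not called, and members sharing a role. Not every gene that the rule allows is printed, and some items are not reported here. Promoter sequences are from RefSeq (GRCm38.p6).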

Additional observations from a re-analysis of the deposited data

How the results depend on the processing

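Over 14 alternatives no gene called in the main fit was called in the opposite direction. This does not cover genes that the main fit did not call, such as Fos. Leaving out 1 library in turn gave 3171 to 5200 genes higher, 3336 to 4964 lower, 6507 to 10164 changed, and 2246 to 3423 rises and 903 to 1132 falls of at least 2-fold; with wild type replicate 1 or 2 left out, the lone wild type library is assumed to vary like the mutated ones. Fitting the 13424 protein-coding genes alone, chosen after seeing the data, called 1830 rises and 686 falls of at least 2-fold, against 3231 and 1044. That fit differed from the main one in the genes tested and in the scaling, and their parts in the lower counts were not separated. Upper-quartile scaling made 58.2% of the changed genes higher, against 51.4%, and moved the median of all genes to 0.12. DESeq2 called 4939 higher and 4357 lower. The replicate block called 4916 higher and 4818 lower; same-numbered deviations correlated at r between -0.0149 and 0.0129, so the numbers are no sign of pairing, and with 2 pairs none was crossed. Among named genes, Fos changed sign (-0.014 with no filter on low counts, -0.0030 in the fit over all 10 libraries; leaving out libraries gave -0.36 to 0.47), as did the uncalled Srf (0.0022 with median-of-ratios scaling and with DESeq2, 0.068 with upper-quartile scaling, 0.070 with the stricter filter, 0.087 in the protein-coding fit; leaving out libraries gave -0.059 to 0.010), Dusp1 ranged from -0.79 to 0.067 and Camp from -0.76 to 0.093, and the uncalled markers Ncr1 from -0.94 to 0.70, Mertk from -0.40 to 0.41 and Ltf from -0.091 to 0.57, when 1 library was left out, and the cause was not tested. Srsf2 was called lower in the fit over all 10 libraries (-0.19, adjusted p = 0.0391). Among the gene lists, upper-quartile scaling and the protein-coding fit raised the rises of stem cell genes from 3 to 6 and 7, and lowered the falls of Hox genes from 4 to 2 and of cholesterol genes from 9 to 5 and 4. Depth limits genes under 1 CPM, where calls rest on few counts.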

Other observations

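Other gene groups moved less. MHC class I presentation genes rose in 5 of 16 and fell in 3 (median 0.06), with 3 rises without wild type replicate 1 or Srsf2 mutated replicate 1 and 5 falls without Srsf2 mutated replicate 3. Cholesterol synthesis and uptake genes fell in 9 of 24 and rose in 4 (median -0.19), with 4 or 5 falls without wild type replicate 1 or 2 and 4 without Srsf2 mutated replicate 1. Within them Insig1, a brake on the pathway, went from 29.5 and 29.5 CPM to 63.02, 66.1 and 66.4 (log2 fold change 1.14 ± 0.10 SE, adjusted p = 2.21e-06). Replication-dependent histone genes, most of whose mRNAs carry no poly(A) tail, rose in 10 of 53 and fell in 8 (median 0.005; 5 falls without wild type replicate 2). The linker histone gene Hist1h1c went from 89.5 and 97.3 to 247, 255 and 299.7. Endothelial and stromal genes rose in 4 of 12 and fell in 3 (median 0.52), with 1 rise without wild type replicate 1 and 2 without wild type replicate 2 or Srsf2 mutated replicate 1.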
